A study of Mus musculus with 12 samples.

Results

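The 39 genes of the 4 mouse Hox clusters were followed in cultured stroma of the small intestine, out of 23329 genes listed in the count tables. Members were chosen by name alone, as every symbol made of Hox, a cluster letter from a to d and a paralog number, and all 39 were matched in RefSeq. The study asked how immature and adult intestinal stroma respond to bacterial lipopolysaccharide (LPS), and measured mRNA by sequencing. C57BL6/J mice gave the cells, either at E14.5 (embryonic day) or as adults, and cells were used at passage 2 to 3. They received LPS from E. coli O111:B4, labelled as 10 µg/µl, for 6 h, or the vehicle PBS. The 4 groups, embryonic PBS, embryonic LPS, adult PBS and adult LPS, held 3 libraries each, numbered 1 to 3. The adult cultures came from 3 mice, and each embryonic culture pooled 6 embryos, so that an embryonic value is a mean over a pool of animals. The labels call the cells intestinal myofibroblasts, but no marker was used to sort them: the epithelium was stripped with EDTA and the remaining wall was digested and plated. Before that step, adult intestines were opened and their villi scraped off, whereas the smaller embryonic intestines were cut into pieces. Tissue preparation thus differed with stage, and the 2 cannot be told apart.

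Hox genes encode homeodomain transcription factors that give cells of the embryo their position along the head to tail axis. They lie in clusters whose gene order follows the order of the body regions, so that low paralog numbers are used from the front of the trunk backwards and high numbers only towards its end. In the gut the mesenchyme carries much of this code, and genes of paralog groups 9 to 13 are known as marks of the hindgut and cloacal end, while the groups below them are used along the small intestine. Hox proteins bind DNA together with TALE cofactors of the Pbx and Meis families.

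In GRCm38.p6 the HoxA cluster on chromosome 6 has 11 members, HoxB spans chr11:96194316-96368254 with 10, HoxC spans chr15:102921131-103036856 with 9 and HoxD spans chr2:74668225-74765142 with 9. Libraries held 18850224 to 32672370 counts on the sense strand of genes, of which 6736 to 14003, or 0.0259% to 0.0429%, fell on Hox genes. Levels are given as CPM, counts scaled to a common library size by TMM, and between genes as RPKM, which also divides by kilobases of exon. A count of 3, taken as the floor of detection, was worth 0.0907 to 0.145 CPM, which covers counting error only. Antisense counts were 1.01% to 2.51% of the Hox total, and that of a tested member was at most 20.1%, at Hoxd3. Defining stroma markers such as Col1a1, Col1a2 and Vim gave 22169 to 44668 CPM in sum over 11 genes. The sum does not show each marker. At an adjusted p under 0.05 by edgeR, 1 of the 11 was lower in embryonic than in adult cells under each treatment, and 0 were higher. The shares of all tested genes called in either direction were 4.08% with PBS and 5.31% with LPS. The sum of 10 macrophage markers was 127 to 1727 CPM in embryonic and 8.26 to 96.0 in adult libraries, and that of 8 endothelial markers was 11.8 to 37.6 in embryonic and 16.3 to 1863 in adult libraries. Hox levels in such bulk libraries cannot tell fewer expressing cells from less RNA in each cell.

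Libraries of a stage fell into pairs by number. Over 35 members, the library nearest in Hox profile to each of the 12 was the one with the same stage and number, at a distance of 0.349 to 0.675 (root mean square log2 CPM), against at least 0.824 to any library of another number. Deviations from the group means also correlated between the LPS and PBS libraries of a number, across all tested genes, with r of 0.61 to 0.849. LPS and PBS libraries of 1 number are therefore described as 1 culture.

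Of the 39 members, 22 lay above 0.5 CPM in all 12 libraries and 6 (Hoxb1, Hoxb13, Hoxc11, Hoxc12, Hoxd1 and Hoxd12) in none. Hoxb1, Hoxb13, Hoxd1 and Hoxd12 never passed 3 counts. The filter for testing, CPM above 0.5 in all libraries of at least 1 group, kept 25 members. Of the 14 left out, 10 passed 3 counts in a library, and they are given below by their values.

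Members of HoxB and HoxC carried most of the signal. By RPKM, averaged over 3 cultures, the highest embryonic levels were those of Hoxb2 (28.8 ± 0.66, SD, n = 3), Hoxc6 (23.5 ± 5.03), Hoxb6 (17.2 ± 7.82), Hoxc8 (14.9 ± 5.64), Hoxa5 (11.4 ± 4.86), Hoxb7 (10.2 ± 2.49) and Hoxb9 (9.65 ± 3.65). In the adult mean the order was Hoxc8 (31.3 ± 21.0), Hoxc6 (26.1 ± 13.6), Hoxb2 (20.6 ± 0.513), Hoxb6 (15.3 ± 3.18), Hoxb7 (11.3 ± 1.40) and Hoxb9 (10.9 ± 2.28). Each SD is between culture means over a PBS and an LPS library, so it leaves out the spread within a culture. From Hoxc6 down, neighbours in the embryonic order lay within 1 SD, taken from the more variable of both, and so did Hoxc8, Hoxc6 and Hoxb2 at the head of the adult order. In adult culture 2 that head was turned round, with Hoxb2 at 18.5 and 21.6 RPKM (PBS and LPS), Hoxc6 at 11.0 and 12.5 and Hoxc8 at 9.94 and 7.61. HoxB gave 52.9% ± 6.30 of the summed Hox RPKM in embryonic and 46.7% ± 7.25 in adult cultures (SD, n = 3). HoxC gave 28.9% ± 2.33 and 37.6% ± 17.8, HoxA 14.9% ± 4.31 and 9.47% ± 4.64, and HoxD 3.28% ± 1.98 and 6.21% ± 5.96.

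**Figure D1:**
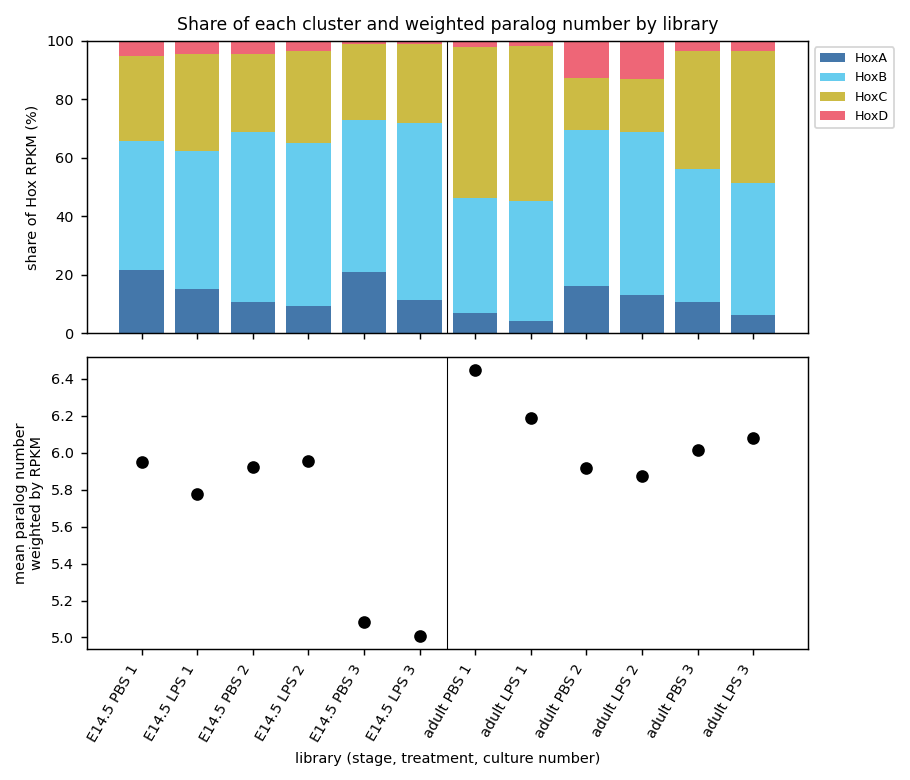
Upper panel, share of the summed Hox RPKM from each cluster in each library (stacked bars, percent). Lower panel, mean paralog number weighted by RPKM, one point for each library. HoxC falls to 17.7% and 18.0% and HoxD reaches 12.9% and 13.1% in adult culture 2, and the weighted paralog number is lowest, at 5.08 and 5.01, in embryonic culture 3.

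Within HoxB, Hoxb2, a member of the anterior groups that is also used in the hindbrain, was at 42.6, 44.7 and 39.3 CPM in embryonic PBS cultures 1 to 3, 49.8, 47.6 and 56.8 in embryonic LPS, 26.8, 30.0 and 35.1 in adult PBS and 40.8, 35.1 and 33.3 in adult LPS libraries. All 6 embryonic values lay above 39 CPM, and each embryonic group lay above the adult group of the same treatment. Across treatments the stages overlapped, since adult LPS library 1 (40.8 CPM) lay above embryonic PBS library 3 (39.3 CPM). Hoxb3, its neighbour, was at 31.3, 19.4 and 32.2 CPM in embryonic PBS, 29.0, 16.3 and 26.0 in embryonic LPS, 17.9, 28.6 and 25.6 in adult PBS and 23.1, 22.7 and 23.4 in adult LPS libraries. Hoxb4, a regulator best known from blood stem cells, was at 21.6, 17.0 and 17.7 CPM in embryonic PBS, 17.3, 17.8 and 17.5 in embryonic LPS, 12.3, 17.3 and 12 in adult PBS and 12.6, 14.9 and 10.3 in adult LPS libraries. Hoxb3 overlapped between the stages, while the LPS libraries of Hoxb4 did not.

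Hoxb5, which is known for its role in enteric nerve cells, was at 10.4, 13.3 and 12.7 CPM in embryonic PBS, 8.81, 18.3 and 10.9 in embryonic LPS, 8.98, 10.8 and 10.0 in adult PBS and 8.71, 10.2 and 10.1 in adult LPS libraries. Hoxb6 was at 20.7, 33.5 and 15.3 CPM in embryonic PBS, 16.2, 35.6 and 15.3 in embryonic LPS, 24.1, 15.9 and 24.4 in adult PBS and 21.6, 14.7 and 20.2 in adult LPS libraries. Hoxb7 was at 12.1, 17.9 and 10.9 CPM in embryonic PBS, 10.1, 15.8 and 12 in embryonic LPS, 13.8, 17.2 and 14 in adult PBS and 12.1, 15.8 and 14.54 in adult LPS libraries. In each of these 3 members the groups overlapped, and embryonic culture 2 held the highest embryonic value under both treatments. Hoxb8 was at 17.4, 21.4 and 16.5 CPM in embryonic PBS, 13.0, 20.2 and 16.8 in embryonic LPS, 18.1, 20.3 and 17.5 in adult PBS and 19.1, 17.4 and 16.3 in adult LPS libraries. Hoxb9, the most posterior HoxB member that was expressed, was at 36.0, 18.1 and 15.6 CPM in embryonic PBS, 35.3, 21.6 and 22.4 in embryonic LPS, 30.3, 32.7 and 21.1 in adult PBS and 27.9, 33.8 and 22.2 in adult LPS libraries. Embryonic culture 1 stood above the other embryonic cultures in Hoxb9, and no HoxB library went beyond paralog 9, since Hoxb13 was at 0 to 2 counts.

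In HoxC, Hoxc4 was at 7.36, 5.57 and 8.47 CPM in embryonic PBS, 7.86, 7.05 and 7.99 in embryonic LPS, 7.11, 3.81 and 8.06 in adult PBS and 8.51, 3.30 and 7.68 in adult LPS libraries. Hoxc5 was at 14, 10.4 and 12.3 CPM in embryonic PBS, 13.2, 8.77 and 13.0 in embryonic LPS, 14.47, 4.34 and 9.92 in adult PBS and 13.6, 4.68 and 7.29 in adult LPS libraries. Hoxc6, a marker of the trunk, was at 44.8, 24.0 and 31.3 CPM in embryonic PBS, 47.9, 39.4 and 35.6 in embryonic LPS, 53.0, 17.5 and 37.9 in adult PBS and 69.6, 19.7 and 50.0 in adult LPS libraries. These 3 shared 1 feature, which was that adult culture 2 held the lowest adult values in both of its libraries. Hoxc8, a thoracic patterning gene, was at 34.6, 32.9 and 16.3 CPM in embryonic PBS, 32.3, 36.2 and 15.2 in embryonic LPS, 94.9, 18.6 and 64.0 in adult PBS and 92.7, 14.2 and 66.4 in adult LPS libraries. Hoxc9 was at 7.48, 4.6 and 3.78 CPM in embryonic PBS, 6.84, 4.94 and 3.08 in embryonic LPS, 5.71, 1.78 and 4.51 in adult PBS and 6.73, 1.14 and 4.57 in adult LPS libraries. Adult culture 2 was the lowest of the adult cultures here too, and Hoxc8 of adult cultures 1 and 3 lay above every other library.

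Hoxa2 to Hoxa7 were at 0.785 to 2.83 RPKM in the mean of a stage, apart from Hoxa5. Hoxa2 was at 4.09, 1.74 and 4.48 CPM in embryonic PBS, 3.51, 1.42 and 3.20 in embryonic LPS, 2.36, 3.81 and 3.00 in adult PBS and 1.07, 3.20 and 1.38 in adult LPS libraries. Hoxa3, which is needed in the pharyngeal pouches, was at 11.8, 2.16 and 8.23 CPM in embryonic PBS, 7.16, 2.34 and 4.45 in embryonic LPS, 4.90, 9.21 and 8.48 in adult PBS and 2.89, 7.70 and 4.75 in adult LPS libraries. In Hoxa2 and Hoxa3 both libraries of embryonic culture 2 lay below those of the other embryonic cultures. Hoxa4 was at 5.15, 3.23 and 7.14 CPM in embryonic PBS, 4.56, 2.14 and 4.83 in embryonic LPS, 2.98, 4.68 and 3.00 in adult PBS and 1.95, 2.65 and 2.07 in adult LPS libraries. Hoxa5, known from lung and gut mesenchyme, was at 39.2, 10.1 and 31.6 CPM in embryonic PBS, 19.6, 12.8 and 14.9 in embryonic LPS, 7.99, 19.6 and 13.4 in adult PBS and 3.87, 11.6 and 6.69 in adult LPS libraries. Hoxa5 spanned 3.87 to 39.2 CPM, and its embryonic values lay above all adult values among the LPS libraries. Hoxa6 was at 1.54, 0.396 and 1.30 CPM in embryonic PBS, 0.912, 0.297 and 0.234 in embryonic LPS, 0.700, 0.868 and 0.930 in adult PBS and 0.455, 0.863 and 0.302 in adult LPS libraries. Hoxa7 was at 5.30, 2.86 and 3.09 CPM in embryonic PBS, 4.21, 3.56 and 2.57 in embryonic LPS, 3.94, 5.40 and 4.48 in adult PBS and 4.0, 5.95 and 3.71 in adult LPS libraries. Hoxa6 was near the filter and its groups overlapped, as did those of Hoxa7.

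HoxD was the weakest cluster. Hoxd3 was at 1.03, 0.366 and 0.333 CPM in embryonic PBS, 0.526, 0.231 and 0.234 in embryonic LPS, 1.10, 3.04 and 0.586 in adult PBS and 0.780, 2.71 and 0.820 in adult LPS libraries. Hoxd4 was at 1.57, 1.37 and 0.696 CPM in embryonic PBS, 1.30, 1.22 and 0.975 in embryonic LPS, 1.91, 5.93 and 2.45 in adult PBS and 1.66, 5.89 and 2.42 in adult LPS libraries. Hoxd8 was at 3.82, 4.78 and 3.27 CPM in embryonic PBS, 4.18, 3.72 and 1.99 in embryonic LPS, 6.41, 17.6 and 8.65 in adult PBS and 5.88, 14.6 and 6.64 in adult LPS libraries. Hoxd9 was at 1.67, 1.46 and 0.242 CPM in embryonic PBS, 1.33, 1.45 and 0.390 in embryonic LPS, 1.51, 9.21 and 3.31 in adult PBS and 1.33, 8.32 and 1.94 in adult LPS libraries. All adult values of Hoxd4 and Hoxd8 lay above the embryonic values of the same treatment, and adult culture 2 was the highest library pair for Hoxd3, Hoxd4, Hoxd8 and Hoxd9.

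The posterior limit, the highest paralog number above 0.5 CPM in all libraries of a group, was 7 in HoxA, 9 in HoxB and 13 in HoxC in each group. In HoxD it was 8 in both embryonic and 9 in both adult groups. The HoxC limit skipped members: Hoxc13, best known from hair and nails, was at 3.36, 7.98 and 1.78 CPM in embryonic PBS, 3.33, 11.1 and 0.897 in embryonic LPS, 15.7, 7.62 and 12.2 in adult PBS and 9.72, 6.16 and 6.34 in adult LPS libraries, whereas Hoxc11 and Hoxc12 stayed at or below 0.246 CPM. Embryonic culture 3 held the lowest values of Hoxc13, and adult culture 1 with PBS the highest.

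These limits hid a difference between cultures, which bore on the genes of the hindgut end. The promoters of 3 of these genes, and of Hoxd8 and Hoxa5, whose stage and LPS values are given below, are shown as a reference for the loci. Each window is the 250 bases before a RefSeq start site on the gene's strand, from chr6:52234940-52235189 (minus strand) for Hoxa10, chr2:74691641-74691890 (plus) for Hoxd10, chr2:74682073-74682322 (plus) for Hoxd11, chr2:74704365-74704614 (plus) for Hoxd8 and chr6:52204588-52204837 (minus) for Hoxa5, all in GRCm38.p6. Capitals mark a match on either strand to TTTATG (a Cdx-type site), TGATNNAT (a Hox-Pbx-type site) or TATAAA (the core promoter motif named TATA box), where the first motif and the reverse complement of the last have 5 letters in common.
Hoxa10: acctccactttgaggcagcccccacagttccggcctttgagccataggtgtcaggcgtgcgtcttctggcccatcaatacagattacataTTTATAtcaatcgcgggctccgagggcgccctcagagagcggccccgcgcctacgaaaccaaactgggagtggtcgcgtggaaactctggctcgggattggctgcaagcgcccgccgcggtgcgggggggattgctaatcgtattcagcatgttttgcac
Hoxd10: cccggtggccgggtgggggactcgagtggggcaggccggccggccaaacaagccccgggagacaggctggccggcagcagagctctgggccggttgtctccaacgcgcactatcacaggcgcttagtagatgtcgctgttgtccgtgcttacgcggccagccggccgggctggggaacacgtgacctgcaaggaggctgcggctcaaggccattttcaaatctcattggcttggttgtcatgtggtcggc
Hoxd11: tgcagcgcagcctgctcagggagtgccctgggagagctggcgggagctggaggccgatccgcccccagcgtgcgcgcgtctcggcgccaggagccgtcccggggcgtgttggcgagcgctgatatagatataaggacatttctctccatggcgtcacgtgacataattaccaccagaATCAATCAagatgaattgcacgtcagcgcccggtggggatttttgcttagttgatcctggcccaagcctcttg
Hoxd8: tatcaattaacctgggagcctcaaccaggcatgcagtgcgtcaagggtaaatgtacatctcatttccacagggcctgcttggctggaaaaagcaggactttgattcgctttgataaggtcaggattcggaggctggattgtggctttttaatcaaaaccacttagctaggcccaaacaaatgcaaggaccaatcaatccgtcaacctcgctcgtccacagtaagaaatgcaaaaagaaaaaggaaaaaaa
Hoxa5: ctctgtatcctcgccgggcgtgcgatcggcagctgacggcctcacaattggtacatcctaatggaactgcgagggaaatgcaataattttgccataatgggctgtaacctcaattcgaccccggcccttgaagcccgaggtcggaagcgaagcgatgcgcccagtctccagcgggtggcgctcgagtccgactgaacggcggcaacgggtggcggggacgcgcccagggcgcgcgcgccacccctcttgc
The Hoxa10 window held 1 TATA box match and the Hoxd11 window 1 Hox-Pbx-type match, and the other 3 held none of the motifs. A further Hoxa10 window, chr6:52240855-52241104, is not shown and held none of the motifs. A further Hoxd11 window, chr2:74679308-74679557, held 1 Cdx-type match and no Hox-Pbx-type match. The orientation of the Hoxd10 window could not be checked against a transcript. Among 24 Hox windows from 22 members, 5 held the Cdx-type, 4 the Hox-Pbx-type and 4 the TATA box letters. The shares over all 32851 RefSeq windows of this length were 10.8%, 7.7% and 12.4%. Hox windows held a median of 12.5 CG pairs, against 6 over all windows.

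Hoxa10, a hindgut and limb gene, was at 12.3, 6.43 and 0 CPM in embryonic PBS, 8.81, 5.60 and 0.117 in embryonic LPS, 0.258, 0.241 and 0 in adult PBS and 0.0975, 0.370 and 0.129 in adult LPS libraries. Hoxa11, its neighbour, was at 9.20, 4.66 and 0 CPM in embryonic PBS, 5.61, 3.99 and 0 in embryonic LPS, 0.0368, 0 and 0 in adult PBS and 0, 0 and 0.0431 in adult LPS libraries. Both were high in the 4 libraries of embryonic cultures 1 and 2 and at or near 0 in embryonic culture 3, where Hoxa10 had 0 counts with PBS and 3 with LPS and Hoxa11 had 0 in each. Hoxa9 was at 1.85, 1.61 and 0 CPM in embryonic PBS, 0.982, 1.25 and 0 in embryonic LPS, 0, 0.434 and 0.0689 in adult PBS and 0.0325, 0.277 and 0 in adult LPS libraries. Hoxc10 was at 4.6, 4.45 and 0 CPM in embryonic PBS, 4.39, 4.15 and 0.0390 in embryonic LPS, 0.847, 0.0482 and 0.379 in adult PBS and 1.01, 0.123 and 0.173 in adult LPS libraries. Hoxc10 showed the same order of embryonic cultures, and adult culture 1 was the adult culture above 0.5 CPM.

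Hoxd10 was at 7.90, 4.14 and 0 CPM in embryonic PBS, 6.17, 4.02 and 0.0780 in embryonic LPS, 0.0368, 11.6 and 1.48 in adult PBS and 0.0325, 12.3 and 3.02 in adult LPS libraries. It was high in embryonic cultures 1 and 2 and highest in adult culture 2, with 241 and 400 counts there. Hoxd11 was at 3.75, 1.92 and 0.0605 CPM in embryonic PBS, 2.25, 1.35 and 0 in embryonic LPS, 0.0368, 0.0964 and 0 in adult PBS and 0, 0.0924 and 0.0431 in adult LPS libraries. Hoxd13, the last gene of the cluster and a gene of digits and the cloacal region, was at 0.666, 1.25 and 0 CPM in embryonic PBS, 0.316, 1.91 and 0 in embryonic LPS, 0, 0.0482 and 0.0345 in adult PBS and 0, 0 and 0 in adult LPS libraries. Hoxd11 and Hoxd13 were at or below 3 counts in every adult library and in embryonic culture 3, and Hoxd13 was higher in embryonic culture 2 than in culture 1.

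Hoxa13, the HoxA gene of the distal hindgut, was at 0.696, 0.183 and 0.363 CPM in embryonic PBS, 0.211, 0.165 and 0.273 in embryonic LPS, 0, 0 and 0 in adult PBS and 0, 0 and 0.0431 in adult LPS libraries. It had 23, 6 and 12 counts with PBS and 6, 5 and 7 with LPS in the embryonic libraries, and 1 count in all adult libraries together. Embryonic culture 3, which lacked Hoxa10 and Hoxa11, held 12 and 7 of these counts. The antisense transcript Hoxa11os was at 2.85, 1.55 and 0 CPM with PBS and 1.58, 1.88 and 0 with LPS in the embryonic cultures, and at most 0.0482 in the adult ones. Evx1, the homeobox gene beyond Hoxa13, was at 1.51, 0.0305 and 0.817 CPM with PBS and 1.33, 0.0330 and 0.624 with LPS in the embryonic cultures and at 0 in all adult libraries. The embryonic culture with the least Evx1 was therefore culture 2, not culture 3.

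**Figure D2:**
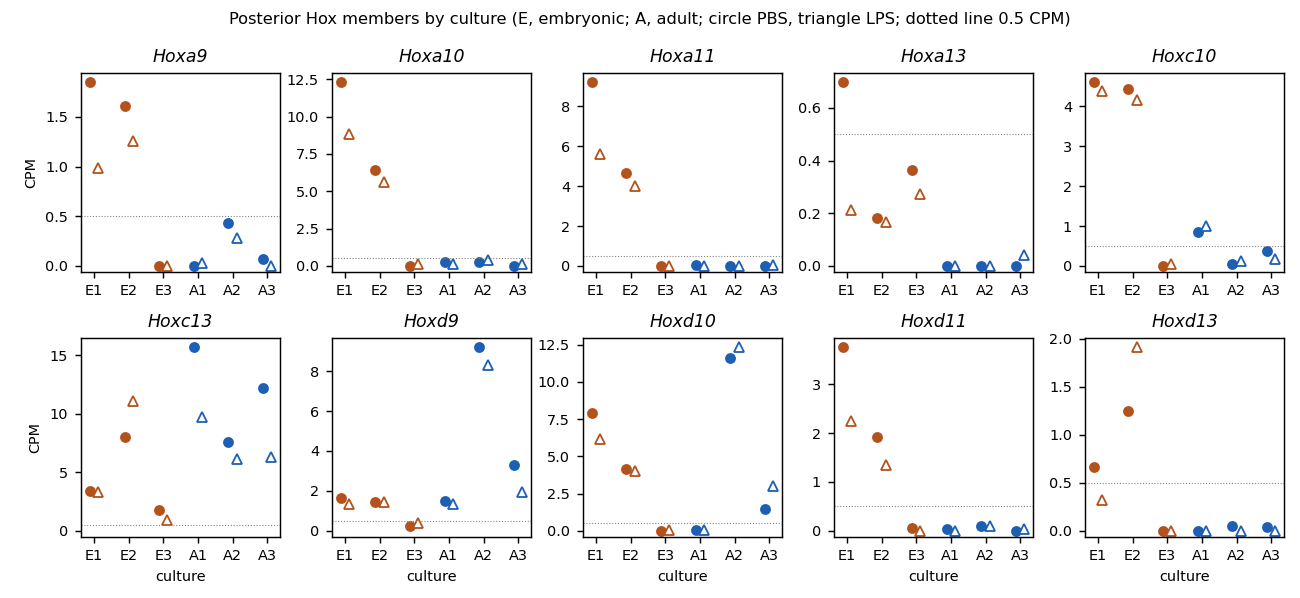
CPM (y axis) of 10 posterior members in embryonic cultures E1 to E3 and adult cultures A1 to A3 (x axis), with circles for PBS and triangles for LPS libraries. Both symbols of embryonic culture 3 are near 0 for Hoxa9, Hoxa10, Hoxa11, Hoxc10, Hoxd10, Hoxd11 and Hoxd13, with Hoxd10 reaching 12.3 CPM in adult culture 2.

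Counted by library, HoxA went to paralog 11 or 13 in embryonic cultures 1 and 2 and to 7 in embryonic culture 3 and all adult cultures. HoxD went to 11 or 13 in embryonic cultures 1 and 2, to 8 in embryonic culture 3, to 9 in adult culture 1 and to 10 in adult cultures 2 and 3. The paralog number weighted by RPKM was 5.95, 5.92 and 5.08 with PBS and 5.77, 5.95 and 5.01 with LPS in the embryonic cultures. It was 6.45, 5.92 and 6.01 with PBS and 6.19, 5.87 and 6.08 with LPS in the adult cultures. Embryonic culture 3 was thus the lowest of all, and embryonic cultures 1 and 2 overlapped the adult range.

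The spread between cultures was also set beside the difference between the LPS and PBS libraries of a culture. The pairing itself was read from these libraries, so this is a description, made after the values were seen, for the 22 members above 0.5 CPM in all 12 libraries. The range of the culture means (log2 CPM) was larger than the largest LPS to PBS difference in 18 of the 22 members in embryonic cells, against 58.9% of 11643 genes. In adult cells it was larger in 17 of 22, against 57.8% of the genes. The range was 1.13 in embryonic and 2.53 in adult cells for Hoxc8, and 1.17 and 0.57 for Hoxb6. For Hoxb2 it was 0.04 and 0.07, below its largest LPS to PBS difference of 0.53 in embryonic and 0.61 in adult cells. Its adult values in cultures 1 to 3 rose with PBS (26.8, 30.0 and 35.1 CPM) and fell with LPS (40.8, 35.1 and 33.3). The close means of its cultures therefore do not show that its libraries were alike.

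Other measures moved with the cultures as well. Embryonic culture 3 held the most macrophage marker RNA of all, with sums of 1727 CPM with PBS and 1388 with LPS, against 154 and 127 in culture 1 and 263 and 677 in culture 2. Adult culture 2 held the most endothelial marker RNA, with 1863 and 1793 CPM, against 21.6 and 16.3 in culture 1 and 403 and 370 in culture 3. Its stroma markers summed to 24978 and 23679 CPM, against 41902 to 42296 in the other adult cultures. Mesothelial markers summed to 751 and 632 CPM in embryonic culture 2 and to 145 to 156 in the other embryonic cultures. The part of these cells in the Hox differences was not tested.

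Between the stages, no Hox member was called with PBS, and Hoxb2 was called with LPS. With PBS, edgeR called 0 of the 25 tested members, against 4.08% of 13038 genes, and 4 members had an unadjusted p under 0.05, as did 2584 of all genes. DESeq2 called 2, Hoxb2 and Hoxd8, against 11.9% of 13006 genes with an adjusted p. The log2 fold change of embryonic over adult was 0.46 for Hoxb2 (SE 0.13, adjusted p = 0.0682) and 0.44 for Hoxb4 (SE 0.19, 0.224). It was -1.46 for Hoxd8 (SE 0.47, adjusted p = 0.111) and -1.49 for Hoxd4 (SE 0.57, 0.175). Hoxa6, Hoxd3 and Hoxd9 passed the filter only through adult groups, so their stage differences are not read here, and Hoxa10 and Hoxa11 did not pass it. A filter by culture (CPM above 0.5 in both libraries of a culture) kept 32 members. It let in Hoxa10 and Hoxa11 through the embryonic cultures where they were high, so their values there are not read. That run called 0 members with PBS, against 3.54% of genes, and Hoxb2 with LPS, against 4.32%. With the main filter, the median log2 fold change with PBS was 0.04 over the 25 members and 0.02 over all tested genes.

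With LPS, 1 of 25 members was called, against 5.31% of the genes. Hoxb2 was higher in embryonic cells by a log2 fold change of 0.52 (SE 0.13, adjusted p = 0.0453 by edgeR). Its 3 embryonic values lay above its 3 adult values, while 19 of the 25 tested members overlapped between the stages with LPS and 22 with PBS. The share of all genes without overlap was not counted, so such separation, here and above, is not read as support for a stage difference. The call was lost when any 1 of embryonic PBS 1, embryonic LPS 1, 2 or 3, adult PBS 2 or 3, or adult LPS 1, 2 or 3 was left out, with log2 fold changes of 0.43 to 0.61. DESeq2 called 2, against 13.1% of the genes. Hoxd8 was at -1.43 (SE 0.47, adjusted p = 0.11 by edgeR) and Hoxa5 at 1.11 (SE 0.53, 0.255). The 2 contrasts rest on the same 6 cultures, so the second is no repeat of the first. The spread behind each SE came from all 12 libraries, with the 2 libraries of a culture taken as separate samples. On the 6 LPS libraries alone, edgeR called 0 of 24 members, against 0.546% of the genes. The 95% interval reached 1.00 to either side on the log2 scale for the median member with PBS, so a 2-fold difference lay at the edge of that member's error.

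**Figure D3:**
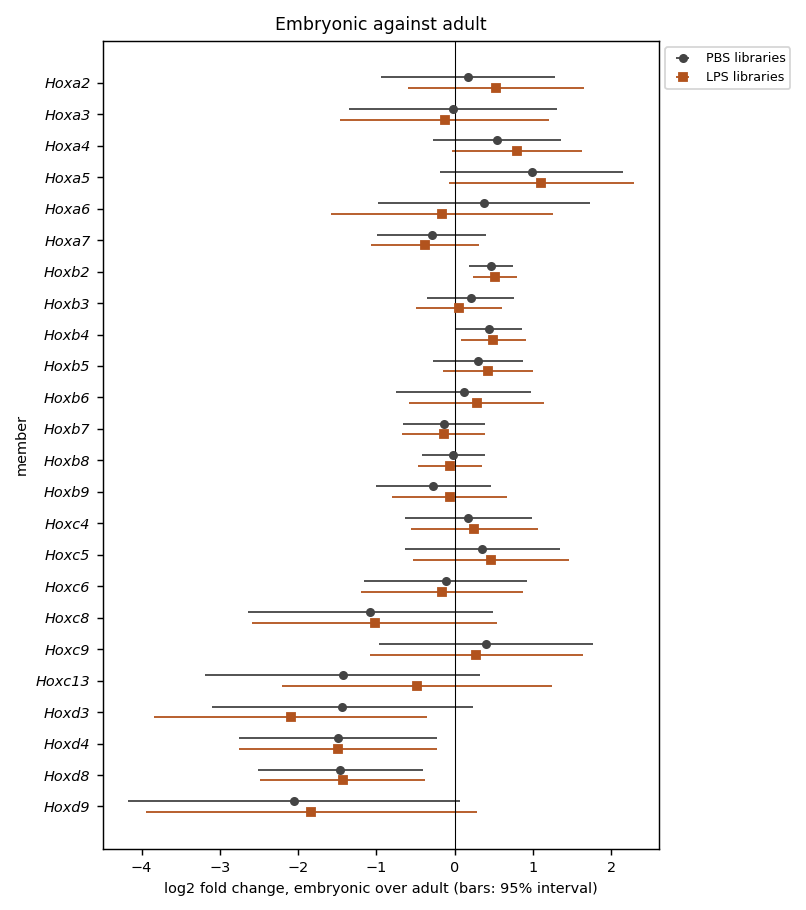
Log2 fold change of embryonic over adult stroma for 24 tested members, with 95% intervals, in PBS (circles) and LPS (squares) libraries. Hoxb2 has a short interval above 0 at 0.46 and 0.52, and Hoxd8 and Hoxd4 lie below 0 with wide intervals. Hoxa6, Hoxd3 and Hoxd9 were tested only because of their adult levels.

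Embryonic culture 3 weighed on this comparison. Without its 2 libraries the stage contrast called 3 members with PBS (Hoxd11, Hoxa10 and Hoxa11) and 4 with LPS (Hoxd13, Hoxd11, Hoxa10 and Hoxa11), all higher in the embryonic cells, against 3.87% and 4.35% of the genes. These members then passed the filter through the embryonic groups where they were high, so the counts are a description of cultures 1 and 2. With adult culture 2 left out the counts were 0 with PBS and 0 with LPS, against 2.45% and 2.22% of the genes.

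LPS acted on the cells, as Nfkb1, a known target of the LPS receptor pathway, was higher with LPS by a log2 fold change of 2.4 (SE 0.30, adjusted p = 0.00296 by edgeR) in embryonic and 2.19 (SE 0.29, 0.0101) in adult cells. No Hox member was called in either stage. Without the replicate block, edgeR called 0 of 25 in embryonic cells, against 2.75% of genes, and 0 of 25 in adult cells, against 0.606%. At an unadjusted p under 0.05 there was 1 embryonic and 0 adult member, against 1407 and 727 genes, and DESeq2 called 0 in each, against 5.26% and 2.26%. With the replicate block, which compares the 2 libraries of a culture, 12.5% and 6.2% of the genes were called and again 0 of 25 members in each stage. At an unadjusted p under 0.05 there were then 6 embryonic and 7 adult members, against 3520 and 2332 genes. With 32 members, those above 0.5 CPM in both libraries of a culture, the block called 0 in each stage, against 11.3% and 5.65% of genes.

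With the block, 16 of 25 tested members lay below 0 under LPS in embryonic and 21 of 25 in adult cells, and none was called. The median over all tested genes was 0.00 and -0.01. The share of all genes below 0, or lower in 5 or 6 cultures, was not counted. The counts of directions given here are therefore not read as a trait of Hox genes. With the replicate block, the 5 members Hoxa2 to Hoxa6 had log2 fold changes of -1.14 to -0.31 in embryonic and -0.91 to -0.60 in adult cells. Hoxa6 gave the -1.14, and the next lowest embryonic value of these was -0.58, for Hoxa5. Hoxa7 and the tested members of HoxB, HoxC and HoxD, 19 in all, lay between -0.74 and 0.36 in embryonic and between -0.64 and 0.34 in adult cells. This grouping was chosen after the values were seen. Hoxa2, Hoxa4 and Hoxa6 were lower with LPS in 6 of 6 cultures and Hoxa3 and Hoxa5 in 5 of 6, as were the 7 members Hoxb3, Hoxb6, Hoxc13, Hoxd3, Hoxd4, Hoxd8 and Hoxd9. Hoxa6 passed the filter only through the adult PBS group, so its adult fall is not read here. It had 9 and 6 counts in embryonic LPS libraries 2 and 3, and in adult culture 2 it went from 0.868 to 0.863 CPM. Hoxa4 in adult cells came nearest to a call, at -0.65 (SE 0.17, adjusted p = 0.0714 by edgeR). Its 3 adult LPS values lay below its 3 adult PBS values, while 24 of the 25 tested members overlapped. The share of all genes without overlap was not counted here either. Hoxa2 was at -0.79 (SE 0.23, 0.101) and Hoxa5 at -0.91 (SE 0.27, 0.113) in adult cells. In embryonic cells Hoxa6 was at -1.14 (SE 0.44, adjusted p = 0.145) and Hoxa4 at -0.41 (SE 0.16, 0.145).

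In the other direction, Hoxc6 was higher with LPS in 6 of 6 cultures, by 0.36 (SE 0.13, adjusted p = 0.128 by edgeR with the block) in embryonic and 0.34 (SE 0.13, 0.228) in adult cells. Hoxb2 was higher in 5 of 6 cultures, by 0.31 (SE 0.13, 0.177) and 0.26 (SE 0.13, 0.374). The 95% interval with the block reached 0.37 to either side on the log2 scale for the median member in embryonic and 0.38 in adult cells. The medians over the 25 members were -0.07 and -0.10, against 0.00 and -0.01 over all tested genes.

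**Figure D4:**
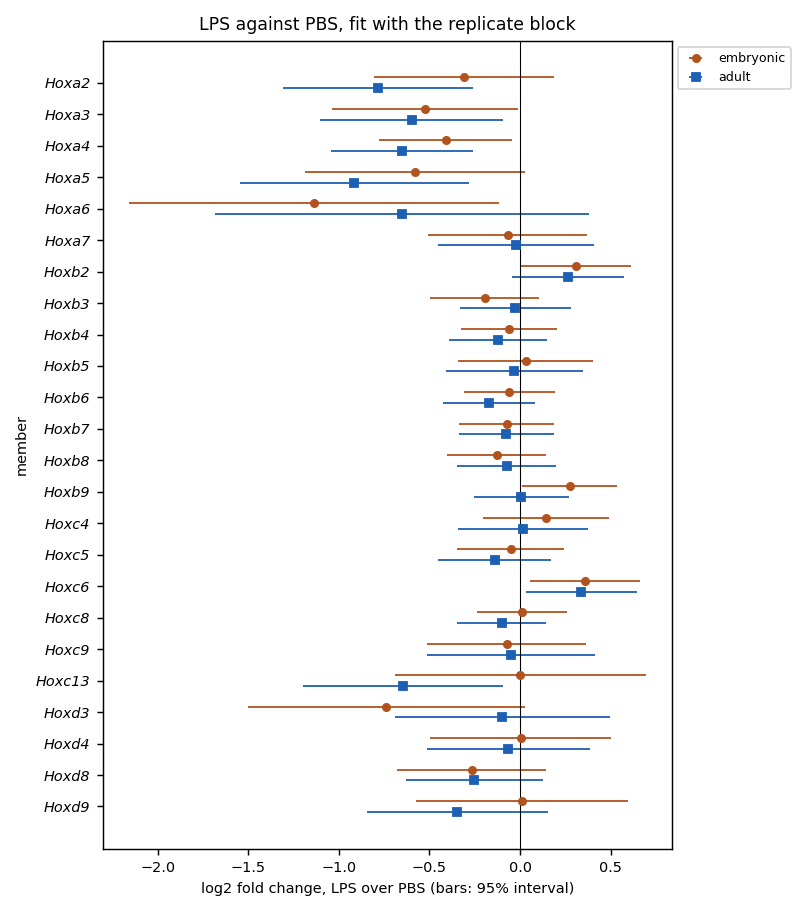
Log2 fold change of LPS over PBS with the replicate block for 24 tested members, with 95% intervals, in embryonic (circles) and adult (squares) cells. Hoxa2 to Hoxa6 lie between -1.14 and -0.31, to the left of most other members, and Hoxc6 lies to the right at 0.36 and 0.34. Hoxa6 was tested only because of its adult PBS levels.

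The response did not differ detectably between the stages. The interaction of stage and LPS was called for 0 of 25 members and 0% of genes without the block, where 0 members and 293 genes had an unadjusted p under 0.05. With the block it was called for 0 members and 0.844% of the genes, or 0.799% with 32 members tested, and no member had an unadjusted p under 0.05. DESeq2 called 0 members, against 0.192% of the genes. The median member's interval reached 0.54 to either side with the block, so a response that differed by less could not be seen.

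Among genes that act with or on the Hox genes, the 9 TALE cofactors were all tested and none was called between the stages or, without the block, under LPS. With the block, Meis1, a cofactor of posterior and anterior Hox proteins, fell with LPS, at a log2 fold change of -0.82 (adjusted p = 0.0161 by edgeR) in embryonic and -1.07 (0.0099) in adult cells. Pbx3 fell in embryonic cells, at -0.33 (0.0455), and Meis2 in adult cells, at -0.67 (0.0205). The block called 12.5% of all tested genes in embryonic and 6.2% in adult cells. Meis1 was at 46.2, 22.4 and 43.7 CPM with PBS and 25.6, 15.6 and 19.4 with LPS in embryonic cells. It was at 25.9, 21.8 and 32.9 with PBS and 10.4, 14.1 and 13.7 with LPS in adult cells. It was lower with LPS in 6 of 6 cultures.

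The 6 Cdx and ParaHox genes, of which Cdx factors activate Hox genes in the early embryo, never passed 0.0964 CPM, and none was tested. Of 26 Polycomb and Trithorax genes, which keep Hox chromatin silent or open, all were tested and none was called between the stages. Kmt2a, a Trithorax methyltransferase that maintains Hox expression, was higher with LPS in embryonic cells by 0.54 (adjusted p = 0.0429 without and 0.0116 with the block). Of 23 transcripts in or beside the clusters, 14 were listed and 7 tested, and Snx10, beside HoxA, was higher with LPS in embryonic cells by 1.28 (0.00379) with the block. Over all tested genes, 2.75% were called under LPS in embryonic cells without the block and 12.5% with it.

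Of 16 genes of the signals that set the Hox code in the embryo, 12 were tested, and 2 were higher and 2 lower in embryonic cells under each treatment. The shares of all tested genes called in either direction were 4.08% with PBS and 5.31% with LPS. The list was chosen with earlier results known, so its count is not read as an excess. With PBS, Rarb, a retinoic acid receptor and target, was higher by a log2 fold change of 2.85 (adjusted p = 0.0305 by edgeR), and Wnt5a, a ligand for gut elongation, by 1.31 (0.0361). Cyp26b1, which degrades retinoic acid, was lower, at a log2 fold change of -4.61 (0.000674) and 5.97, 8.99 and 13.1 CPM in embryonic against 195, 235 and 254 in adult libraries. Cyp26a1 was lower too, at -2.18 (0.0272).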

How the data were processed

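Stranded poly(A) RNA was read from 1 end. The authors trimmed the reads and used STAR on GRCm38.p6, with unique alignments of at most 1 mismatch, and the counts they deposited are whole reads per gene that nothing has scaled. Counts on the sense strand were used, and the 4 summary lines of each table (unmapped, multimapped, no feature, ambiguous) held 17.4% to 19.9% of the reads and stayed out of library sizes. Members and lists were chosen with earlier results of these data known.

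The 12 libraries were fitted together in edgeR 4.0.16 (R 4.3.3) with TMM scaling and the quasi-likelihood test, with Benjamini-Hochberg adjustment over the 13038 genes with CPM above 0.5 in all libraries of at least 1 group. A member was called at an adjusted p under 0.05. The standard error was taken as the absolute log2 fold change over the square root of F. Exon lengths came from GENCODE M21 transcripts paired with RefSeq, and coordinates and promoters from RefSeq for GRCm38.p6. Nothing in the labels says that LPS and PBS libraries of 1 number share a culture. Their deviations from the group means correlated with r of 0.61 to 0.849 in each stage, so the LPS contrasts were also fitted with a replicate block within the stage. Across the stages the same numbers gave r of -0.306 to -0.00198, so they do not pair. Where no label ties libraries to separate animals, p-values measure the spread between these libraries.

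Members that passed the filter are given library by library. All counts cover the 39 members, but 1 member and 2 genes of the lists are not reported here. Genes of the other lists were to be named when called between the stages. Those named for a call under LPS, and Hoxa11os and Evx1, were chosen after their values were seen, as were the comparison of spreads between cultures, the filter by culture and the fits without embryonic culture 3 or adult culture 2. Scripts were tested on simulated counts. DESeq2 1.42.0, other scalings, filters and thresholds, counts on either strand and left-out libraries were tried as alternatives.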

Additional observations from a re-analysis of the deposited data

How the results depend on the processing

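The number of Hox members called between the stages was 0 with PBS and 1 with LPS, and it was small under each setting but not fixed. With PBS it was 1 without a filter (Hoxa13), 2 by DESeq2 (Hoxb2 and Hoxd8), 5 of 25 when the PBS and LPS differences were averaged (Hoxb2, Hoxb4, Hoxd3, Hoxd4 and Hoxd8), where 17.9% of all genes were called, and 3 without embryonic culture 3. Hoxd3 was tested only through the adult groups where it was high, so its call is not read as a stage difference. Members called without embryonic culture 3, with PBS or LPS, passed the filter through the embryonic groups where they were high. The averaged fit, like the main fit in its estimate of the spread, treats the 2 libraries of a culture as separate samples. With their counts summed to 1 sample a culture the number was 0. With LPS it was 0 at a log2 fold change of at least 2, at an adjusted p under 0.01, without a filter, on the 6 libraries compared and without adult culture 2, while it was 2 by DESeq2 and 4 without embryonic culture 3. With 1 library left out it ranged from 0 to 2. Hoxb2 lost its call without any 1 of embryonic PBS 1, the 3 embryonic LPS, adult PBS 2 or 3 and the 3 adult LPS libraries, and the number was 2 without embryonic PBS 3, where Hoxa11 entered the test through the embryonic PBS libraries in which it is high and 6.21% of all genes were called. A replicate block across the stages, whose numbers do not pair the samples, gave 1 with PBS and 1 with LPS, which was Hoxd8 in both and not Hoxb2, against 6.83% and 8.12% of all genes. The cause of these shifts was not tested. Under LPS and in the interaction, 0 members were called under each alternative run, the replicate block within a stage included. The posterior limit of the embryonic groups rose to 13 in HoxA and 9 in HoxD at a threshold of more than 3 counts, and that of HoxC with LPS was 9 at a CPM above 1. With a replicate left out, the embryonic limit lay at 7 to 11 in HoxA, at 8 to 13 in HoxD with PBS and at 8 to 11 in HoxD with LPS, and the limit of both adult groups at 9 to 10 in HoxD. Cluster shares and weighted paralog numbers moved by less than 1 SD under every setting. At these depths 3 counts were worth up to 0.145 CPM, which bounds what could be detected.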
